A study of Chlamydomonas reinhardtii with 9 samples.

Results

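The comparison described here set 3 cultures of Chlamydomonas reinhardtii exposed to 0.5 nM methylmercury against 3 cultures exposed to 0.05 nM, which are 6 of the 9 RNA sequencing libraries of the series. The members were chosen by their labelled dose, with earlier results of these data known. The other 3 libraries were unexposed controls, used here as a reference level and for the shared estimate of spread. All 9 came from the wild-type strain CPCC11 of this unicellular green alga, which spent 2 h in artificial freshwater medium, and each group held 3 biological replicates. The doses differ 10 times. The labels of the 0.05 nM libraries word the sample source differently from the other groups and alone name a sequencer, so the dose and a separate submission or sequencing run, which the labels do not state, cannot be told apart in this comparison.

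Methylmercury crosses membranes and reacts with the thiol groups of proteins and of glutathione. Heat shock proteins and chaperones bind unfolded proteins, help them refold or pass them on for degradation, and their transcripts are commonly raised when proteins are damaged. The carbon concentrating mechanism of green algae consists of bicarbonate transporters, carbonic anhydrases and pyrenoid proteins, and is switched on when carbon dioxide is scarce.

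The files and the reference table do not pair gene identifiers with names, so genes are given by identifier. The gene lists below hold locus numbers recalled from the version 5 numbering of this genome, and no table used here could check which protein each number stands for. Assigned reads ran from 15138888 to 20433375 in the 6 exposed libraries, with the lowest total in 0.5 nM replicate 3. The factor that corrects a library total for composition was 0.991 in that library and 1.02 to 1.13 in the other exposed libraries, against 0.946, 0.875 and 0.824 in control replicates 1, 2 and 3. Alignments at several places, which were not assigned, came to 43.7% of the assigned count in control replicate 3, 24.2% and 27.0% in control replicates 1 and 2, and 19.0% to 23.0% in the exposed libraries. The part of these differences in the values relative to control was not tested. Levels are given as CPM, read counts scaled to a common corrected library total, and are compared between libraries and not between genes.

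The step from 0.05 to 0.5 nM moved few genes far, and more genes were called lower than higher at the higher dose. With p-values from edgeR's quasi-likelihood test adjusted by Benjamini and Hochberg's method over 14778 genes, 121 genes were lower at 0.5 nM (0.819% of those tested) and 2 were higher (0.0135%), together 0.832%. The lowest adjusted p of any gene in this test was 0.0421, and the 121 lower genes ran from there to 0.04999. Every call without the block thus lay close to the threshold of 0.05. Labels gave the same replicate numbers to each group. Deviations from the group means correlated between same-numbered dose libraries at 0.57, 0.366 and 0.147 for numbers 1, 2 and 3. Between differently numbered ones the value was at most 0.153. With the replicate number as a block, 1041 genes were lower (7.04%) and 287 higher (1.94%), together 8.99%, and all 123 genes called without the block were among them. The median absolute log2 difference over all genes tested was 0.14, or 1.10-fold, and 55 genes differed by at least 1. Without the block, 13 of the called genes differed by at least 1, all of them lower, and with the block 32 lower and 6 higher genes did. The count without the block depended on the scaling and on single libraries. It was 0 with library totals alone in place of the composition correction, where 1530 genes had an unadjusted p under 0.05, and 1 with replicates 2 and 3 only. It was also 0 with any of 7 libraries left out, namely control replicates 2 and 3, 0.5 nM replicates 1 and 3 or any library at 0.05 nM. In those 7 fits the number with an unadjusted p under 0.05 ran from 1254 to 2020. DESeq2 on all 9 libraries called 653. The edgeR count was 383 without control replicate 1 and 200 without 0.5 nM replicate 2. With the block and 1 replicate number left out of every group, it was 538, 533 and 1548 without numbers 1, 2 and 3.

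**Figure D1:**
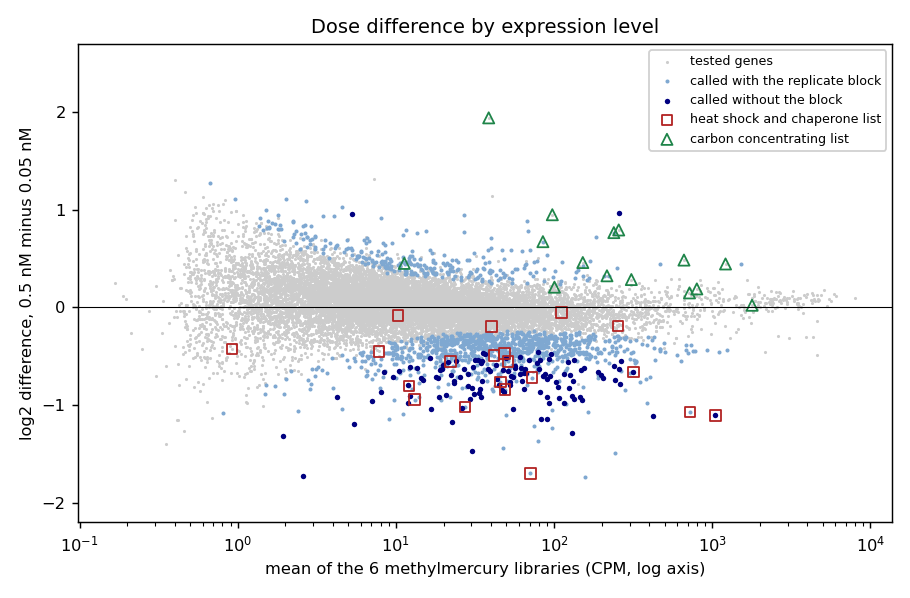
Each point is a tested gene, with the mean CPM of the 6 methylmercury libraries on a logarithmic horizontal axis and the log2 difference between 0.5 nM and 0.05 nM on the vertical axis. Dark points are the 123 genes called without the block, pale blue points were called with it, red squares are the 20 heat shock and chaperone loci and green triangles the 15 loci of the carbon concentrating list; the squares all lie below 0 and the triangles all above it.

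The log2 differences of the 121 genes that fell ran from -1.72 to -0.46 with a median of -0.72, or 1.64-fold. Their mean level over the exposed libraries spanned 1.94 to 1047 CPM. The 1041 genes lower with the block had a median log2 difference of -0.45, and the 287 higher genes one of 0.46. Identifiers of the g type, which lack a chromosome number, made up 25.6% of the genes that fell and 24.1% of all tested.

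For most of the genes that fell, the mean at 0.05 nM already lay below that of the controls. The group means declined stepwise from control through 0.05 nM to 0.5 nM for 96 of the 121 genes (79.3%). Among all tested genes with a lower mean at 0.5 nM than at 0.05 nM, 61.6% had this order. The remaining 25 genes had their highest mean at 0.05 nM. With the block, 885 of the 1041 lower genes (85%) had means in this stepwise order and 156 peaked at 0.05 nM. Of the 287 higher genes, 213 (74.2%) had means in the opposite stepwise order and 74 had their lowest mean at 0.05 nM, where 66.6% of all tested genes with a higher mean at 0.5 nM had the stepwise order. These orders describe means. In this count, a control mean between the doses goes with the peaks at 0.05 nM, so genes lower at 0.5 nM can only take these 2 orders.

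The size of the difference varied between the replicate numbers. Over the 121 genes, the median log2 CPM difference between the doses was -0.73 in replicate 1, -0.64 in replicate 2 and -0.80 in replicate 3. All 121 genes were lower within every replicate number and did not overlap between the doses, which the call from the same libraries nearly fixes and which is no further support. In all genes tested, 23.6% were lower within all 3 numbers, 22.4% were higher within all 3, and the dose libraries did not overlap for 20.7% (12.1% with the higher dose lower, 8.6% with it higher). The 0.5 nM replicate 3 library was the lowest of its group for 114 of the 121 genes (94.2%), and for 40.1% of all genes tested. At 0.05 nM the replicate 3 library was likewise the lowest of its group for 114 genes (94.2%), against 31.3% of all. Among the 1041 genes lower with the block, the median differences were -0.43, -0.38 and -0.55 in replicates 1, 2 and 3. For the 287 higher genes they were 0.42, 0.39 and 0.55.

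**Figure D2:**
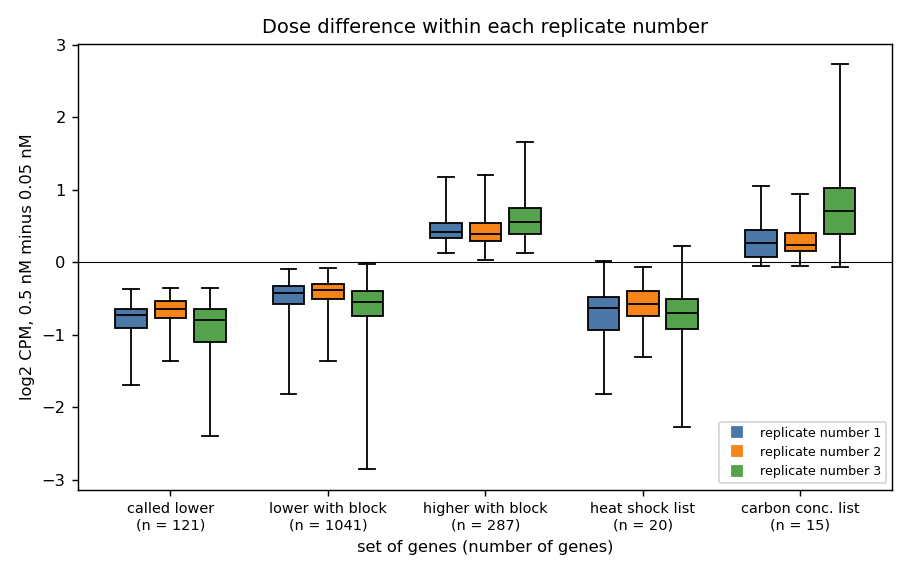
Boxes show the log2 CPM at 0.5 nM minus that at 0.05 nM within replicate numbers 1, 2 and 3, for the genes called lower, the genes lower and higher with the replicate block, and the loci of 2 lists. Boxes span the quartiles with the median as a line, and whiskers reach the lowest and highest gene. The 3 boxes of each set lie on the same side of 0, and the carbon concentrating loci have a median of 0.70 in replicate 3 against 0.26 and 0.24 in replicates 1 and 2.

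Heat shock and chaperone loci had the largest median difference of the 9 lists. The lists were chosen with earlier results of these data known, so the shares of all genes given beside them are a reference and no independent support. Of 24 recalled numbers 20 were in the files, and all 20 passed the low-count filter. All 20 log2 differences were negative, from -1.70 to -0.05, with a median of -0.61 or 1.52-fold, while the median over all genes tested was 0.013. Without the block 2 of the 20 passed the test and with it 14 did, against the background of 0.819% and 7.04% given above. The 14 also had no overlap between the libraries of the doses, and 16 of the 20 were lower within all 3 replicate numbers, against 12.1% and 23.6% of all genes tested. DESeq2 called 11. With library totals alone 0 of the 20 passed in edgeR's test, and all 20 were lower. Without the block, 0 passed when any of the 7 libraries whose loss removed all calls was left out. The count was 8 without control replicate 1 and 4 without 0.5 nM replicate 2, where 383 and 200 genes passed in all. Leaving out 0.5 nM replicate 3 gave a list median of -0.55 with all 20 lower. With the block and without replicate number 3, 16 passed, but the count over all genes rose as well, from 1328 to 1548.

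Per library, the mean log2 CPM of the 20 loci relative to the control mean was -0.55, -0.56 and -0.79 at 0.05 nM, and -1.25, -1.14 and -1.53 at 0.5 nM. The highest library at 0.5 nM thus lay below the lowest at 0.05 nM. The group values were -0.63 ± 0.133 and -1.30 ± 0.202 (SD, n = 3 each). Within the replicate numbers the difference was -0.70, -0.57 and -0.74. Against the controls, 13 of the 20 loci were lower at 0.05 nM (25% of all genes tested were) and 18 at 0.5 nM (28.7%), by the same edgeR test. Those comparisons share the 3 control libraries.

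**Figure D3:**
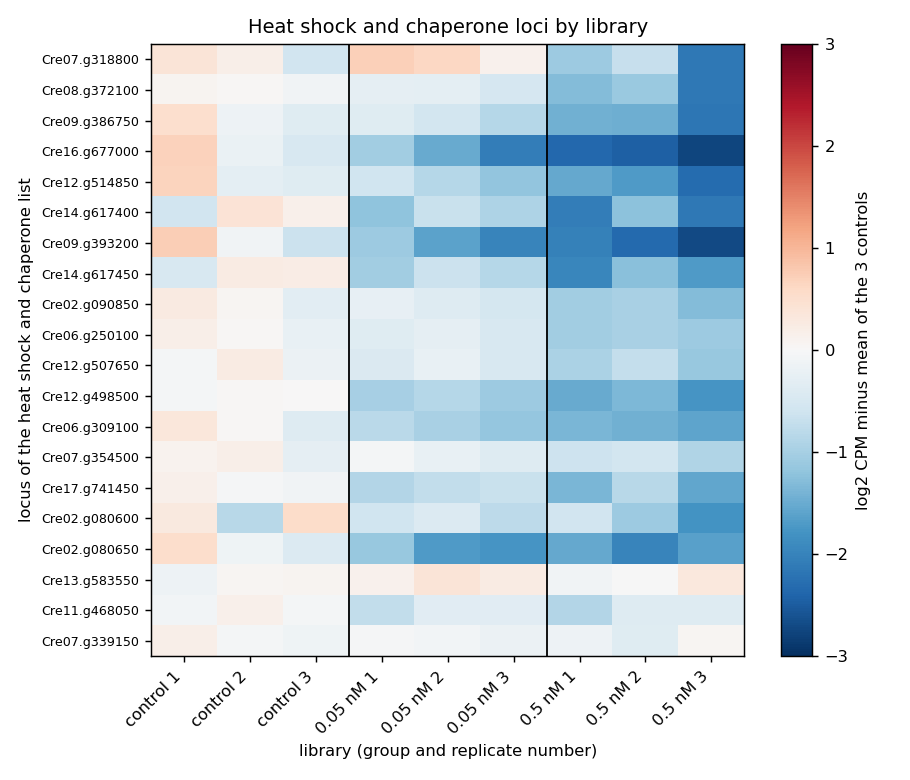
Rows are the 20 loci of the heat shock and chaperone list, ordered by their dose difference, and columns are the 9 libraries. Colour gives the log2 CPM minus the mean of the 3 controls on a scale from -3 to 3. Blue deepens from the 0.05 nM to the 0.5 nM columns in most rows, and the top row is above the control mean at 0.05 nM and below it at 0.5 nM.

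Of the loci called without the block, Cre08.g372100 had the larger difference. Its levels were 1937, 1857 and 1686 CPM in the controls, 1507, 1499 and 1283 CPM at 0.05 nM and 741, 841 and 411 CPM at 0.5 nM. The 3 groups did not overlap. The log2 difference between the doses was -1.11 ± 0.218 (SE; edgeR adjusted p = 0.0484). Cre06.g250100, the other locus called without the block, was measured at 392, 414 and 359.6 CPM at 0.05 nM and at 244, 256 and 236 CPM at 0.5 nM. Its libraries at 0.5 nM lay close together, and the log2 difference was -0.66 ± 0.12 (SE; edgeR adjusted p = 0.0436).

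Cre07.g318800 had the largest difference of the list. It stood at 99.6, 86.3 and 51.1 CPM in the controls, at 125, 116 and 83.5 CPM at 0.05 nM and at 35.5, 46.7 and 17.2 CPM at 0.5 nM. The doses did not overlap, whereas the controls overlapped the 0.05 nM libraries. Its log2 difference was -1.77 ± 0.143 with the block, where it passed, and -1.70 ± 0.364 without (SE; edgeR adjusted p = 0.0707). Cre09.g386750 was measured at 1139, 996 and 812 CPM at 0.05 nM and at 543, 532 and 326 CPM at 0.5 nM. Its controls were spread from 1143 to 2099.8 CPM. The log2 difference was -1.09 ± 0.125 with the block, where it passed, and -1.07 ± 0.251 without (SE; edgeR adjusted p = 0.0707).

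The other 10 loci that passed with the block had log2 differences from -1.02 to -0.47 in the fit without it. The largest among them was Cre16.g677000, at 49.7, 36.3 and 24.4 CPM at 0.05 nM and 20.2, 18.8 and 15.3 CPM at 0.5 nM. In this locus the replicate 1 library was the highest of every group, control included. The neighbouring numbers Cre14.g617400 and Cre14.g617450 had log2 differences of -0.84 and -0.77, and in both the replicate 1 library was the lowest of the control and 0.05 nM groups. The 6 loci that did not pass with the block were Cre17.g741450 (-0.45), Cre02.g080600 (-0.43), Cre02.g080650 (-0.20), Cre13.g583550 (-0.19), Cre11.g468050 (-0.085) and Cre07.g339150 (-0.050), all log2 differences. Cre02.g080600 was measured at no more than 2.38 CPM in any library. Cre02.g080650 averaged 37.4 ± 5.58 CPM at the higher dose, 42.8 ± 10.7 CPM at the lower and 126 ± 43.3 CPM without methylmercury (SD, n = 3 per group), so its level at the doses differed by less than their spread.

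Loci of the carbon concentrating mechanism, a list likewise chosen with earlier results known, lay on the other side. All 15 recalled numbers were in the files and were tested, and all 15 log2 differences were positive, from 0.022 to 1.94 with a median of 0.45 or 1.37-fold. Of the 15, 2 passed with the block (1.94% of all genes tested were higher) and 0 passed without it in edgeR's test, where 5 had an unadjusted p under 0.05 (4.73% of all genes tested did, on the higher side). DESeq2 called 2. The libraries of the doses did not overlap for 5 loci, and 12 were higher within all 3 replicate numbers, against 8.6% and 22.4% of all genes tested. Means were ordered control, 0.05 nM, 0.5 nM from low to high for 14 of them, an order that 66.6% of all tested genes with a higher mean at 0.5 nM had, and 14 were higher than control at 0.05 nM (27.2% of all genes tested were) and 14 at 0.5 nM (31.6%). The locus outside this pattern was Cre10.g436550, which averaged 1800.4 ± 266 CPM at the higher dose, 1773 ± 108 CPM at the lower and 1985 ± 232 CPM without methylmercury (SD, n = 3 per group).

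The size of this difference rested largely on 0.5 nM replicate 3. Per library, the mean log2 CPM of the 15 loci relative to control was 1.91, 2.09 and 2.29 at 0.05 nM and 2.21, 2.38 and 3.12 at 0.5 nM. Replicate 1 at 0.5 nM thus lay below replicate 3 at 0.05 nM, so the doses overlapped. Replicate by replicate, the higher dose exceeded the lower by 0.30, 0.29 and 0.83. Without 0.5 nM replicate 3 the list median was 0.12, with 14 of 15 loci higher. With the block and without replicate number 3 it was 0.24 with all 15 higher, and 4 passed, where 1548 genes passed in all.

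The loci called with the block were Cre04.g222800 and Cre05.g248450. Cre04.g222800 was measured at 6.49, 8.74 and 6.49 CPM in the controls, 57.2, 62.2 and 76.9 CPM at 0.05 nM and 80.6, 90.2 and 143 CPM at 0.5 nM. The 3 groups did not overlap, and the log2 difference between the doses was 0.65 ± 0.119 with the block (SE) and 0.67 ± 0.201 without. Cre05.g248450 was measured at 107, 190.1 and 233 CPM at 0.05 nM and 151, 259 and 493 CPM at 0.5 nM. Here the doses overlapped, while within replicate numbers 1, 2 and 3 the higher dose was higher by 0.50, 0.45 and 1.08 on the log2 scale. Its neighbour in number, Cre05.g248400, was measured at 122, 199 and 241 CPM at 0.05 nM and 161, 245 and 569.6 CPM at 0.5 nM. It did not pass, and whether reads are shared between these loci was not tested. Cre03.g162800 had the largest difference of the list, with 14.4, 14.2 and 19.0 CPM at 0.05 nM and 29.9, 27.3 and 127 CPM at 0.5 nM. Its log2 difference of 1.94 ± 0.585 did not pass (SE; edgeR adjusted p = 0.184), and it was 1.05, 0.94 and 2.73 within replicates 1, 2 and 3.

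The remaining lists had smaller differences between the doses. Of 9 tested glutathione and sulfur loci, a list around the cell's small thiols, 1 fell and 0 rose in either fit, where 0.819% and 7.04% of all genes tested fell, and the list median was -0.074. With the block this share is near that of all genes and is no result about the list. The call without the block was lost with library totals alone or when any of the 7 libraries whose loss removed all calls was left out. The locus that fell was Cre16.g688550, at 331, 326 and 285.6 CPM at 0.05 nM and 200.2, 229 and 181 CPM at 0.5 nM. Its doses did not overlap, and its controls at 392, 467 and 431 CPM lay above both. The log2 difference was -0.63 ± 0.12 (SE; edgeR adjusted p = 0.0459).

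Among 12 antioxidant enzyme loci 1 passed with the block and 0 without, where 8.99% and 0.832% of all genes tested passed, so the count is no result about the list. It was Cre13.g588150, which was lower at 0.5 nM, at 234, 253 and 215 CPM against 314, 324 and 319.8 CPM at 0.05 nM. The 0.05 nM libraries stood above all controls, which measured 258, 305 and 265 CPM. Its log2 difference was -0.45 ± 0.081 with the block and -0.45 ± 0.104 without (SE; edgeR adjusted p = 0.0707). The median of the antioxidant list was -0.021, or 0.0099 with library totals alone and 0.086 without 0.5 nM replicate 1.

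In edgeR's test with or without the block, 0 loci passed in the other 5 lists. Among these, the 3 tubulin loci had a median log2 difference of -0.31, the 12 antenna loci 0.095 and the 10 metal transport loci 0.046. It was 0.11 for the 9 nitrogen assimilation loci and 0.098 for the 5 photoprotection loci. Of 20 recalled antenna numbers only 13 were among the counted genes. For metal transport these were 11 of 12, for nitrogen 10 of 11, for tubulin 3 of 4 and for glutathione and sulfur 11 of 12. The nitrogen median was -0.010 without 0.5 nM replicate 1. At an unadjusted p under 0.05 there was 1 nitrogen locus and none in the other 4 lists, and DESeq2 called 1 nitrogen locus and none in the other 4. The 3 tubulin loci were all lower within every replicate number, with their means in stepwise order, against 23.6% of all genes tested and 61.6% of those with a lower mean at 0.5 nM. The photoprotection loci stood above control by a mean log2 CPM of 1.52 ± 0.153 at the higher dose and 1.46 ± 0.0713 at the lower (SD, n = 3 per group), a difference within the spread. The mean of the antenna loci was -0.20, -0.13 and -0.19 relative to control at 0.05 nM, and -0.25, -0.20 and 0.15 at 0.5 nM. The 0.5 nM replicate 3 library alone lay above the control mean there, and without it the list median was -0.077 with 10 of 12 loci lower.

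**Figure D4:**
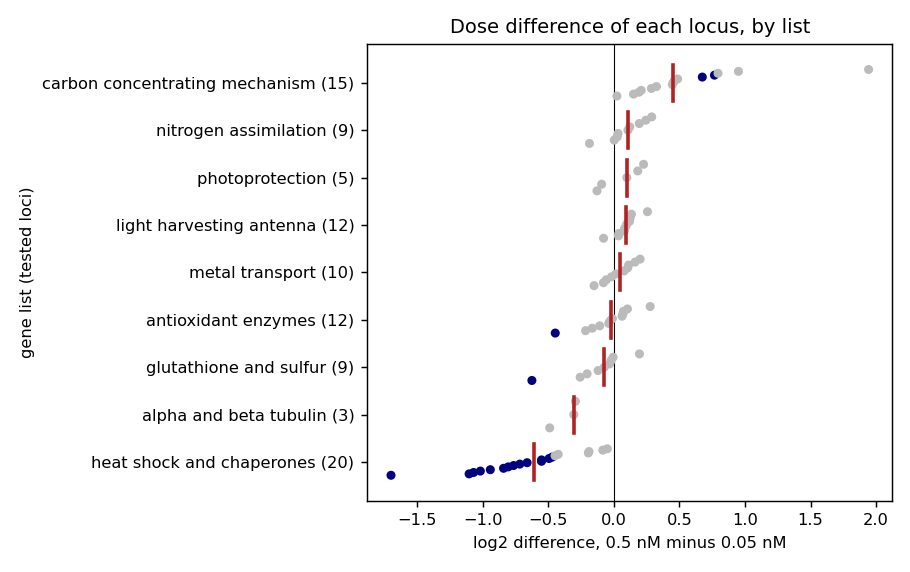
Each point is a tested locus of a gene list, with its log2 difference between 0.5 nM and 0.05 nM on the horizontal axis. Red bars are list medians and dark points passed with the replicate block. The heat shock and chaperone list has 14 dark points and a median of -0.61, the carbon concentrating list has 2 and a median of 0.45, and the medians of the other lists run from -0.31 to 0.11.

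The 2 genes higher at 0.5 nM without the block rose at each step. Cre17.g708750 was measured at 66.4, 64.8 and 66.2 CPM in the controls, 158, 163 and 205 CPM at 0.05 nM and 296, 329.6 and 402 CPM at 0.5 nM. The groups did not overlap, and the log2 difference was 0.91, 1.01 and 0.97 within replicates 1, 2 and 3. Its adjusted p in edgeR's test was 0.0421, within a range of 5.96e-10 to 0.233 over the alternatives. Cre12.g544450 was measured at 1.56, 1.88 and 2.02 CPM in the controls, 3.80, 2.95 and 3.94 CPM at 0.05 nM and 6.17, 6.54 and 8.14 CPM at 0.5 nM. Its groups did not overlap either, and its log2 difference was 0.95 ± 0.17 (SE; edgeR adjusted p = 0.043). These were also the 2 genes with the largest positive difference among those past the threshold with the block at a mean of at least 5 CPM.

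The 2 largest falls among genes called without the block were those of Cre01.g019950 and Cre07.g318850. Cre01.g019950 was measured at 4.88, 4.74 and 3.46 CPM in the controls, 4.30, 4.74 and 2.94 CPM at 0.05 nM and 1.25, 1.77 and 0.467 CPM at 0.5 nM. Cre07.g318850 was measured at 45.9, 54.5 and 34.6 CPM in the controls, 44.0, 52.6 and 36.3 CPM at 0.05 nM and 15.4, 22.6 and 9.60 CPM at 0.5 nM. In both, the controls overlapped the 0.05 nM libraries and all 3 libraries at 0.5 nM lay below. Against control at 0.05 nM the log2 change was -0.13 ± 0.29 for Cre01.g019950 and -0.022 ± 0.264 for Cre07.g318850 (SE). Between the doses it was -1.72 ± 0.33 and -1.47 ± 0.274 (SE; edgeR adjusted p = 0.0459 and 0.0484). Over the alternatives the adjusted p ran from 6.17e-06 to 0.245 and from 6.14e-11 to 0.3045.

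A second pattern, in genes singled out after their values were seen, was a level above control at 0.05 nM with no call against control at 0.5 nM. Cre03.g152750 had the largest fall with the block, and was measured at 86.3, 96.1 and 56.4 CPM in the controls, 280.1, 246 and 195 CPM at 0.05 nM and 86.7, 102 and 26.8 CPM at 0.5 nM. All 3 libraries at 0.05 nM lay above the other 6. Its log2 difference between the doses was -1.88 ± 0.303 with the block, where it passed, and -1.74 ± 0.446 without (SE; edgeR adjusted p = 0.122). Cre10.g424350 was measured at 98.4, 126 and 111 CPM in the controls, 189.6, 198 and 169 CPM at 0.05 nM and 85.6, 98.5 and 43.2 CPM at 0.5 nM, which differed between the doses by a log2 value of -1.29 ± 0.238 (SE; adjusted p = 0.0459 in edgeR's test). Against control at 0.5 nM, the log2 change of Cre10.g424350 was -0.56 ± 0.237 (SE; edgeR adjusted p = 0.0612), so its missing call does not show a return to the control level. The gene g7235 averaged 1.10 ± 0.249 CPM at the higher dose, 2.78 ± 0.751 CPM at the lower and 1.43 ± 0.208 CPM without methylmercury (SD, n = 3 per group). Outside this pattern, in Cre12.g543700 and g5976 alone among the 121 genes, the control mean lay below both doses. Both were still called above control at 0.5 nM (edgeR adjusted p = 0.0027 and 0.020). Cre12.g543700 averaged 19.5 ± 2.14 CPM at the higher dose, 28.7 ± 1.48 CPM at the lower and 13.8 ± 1.31 CPM without methylmercury. In the same order, g5976 averaged 122 ± 18.7, 188 ± 14.1 and 94.4 ± 7.64 CPM (SD, n = 3 per group).

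**Figure D5:**
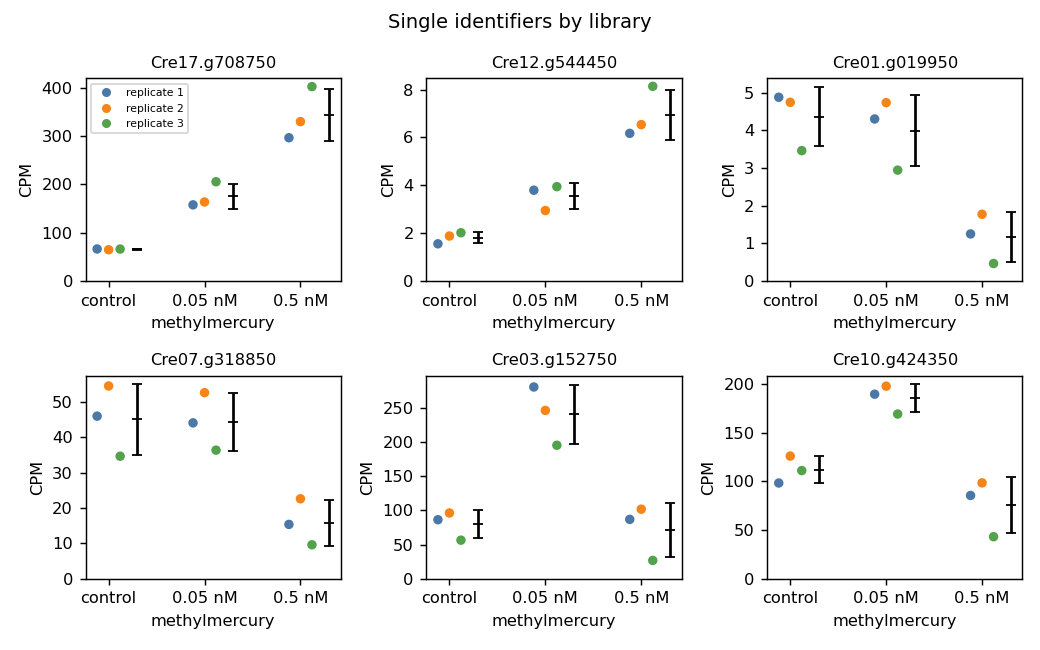
CPM of 6 identifiers in each of the 9 libraries, by group, with replicate numbers in colour and the mean and SD (n = 3) beside them; vertical axes start at 0. Cre17.g708750 and Cre12.g544450 rise at each step, Cre01.g019950 and Cre07.g318850 are lower at 0.5 nM only, and Cre03.g152750 and Cre10.g424350 are highest at 0.05 nM.

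By the locus order of the RefSeq table, Cre07.g318850 is the next locus to Cre07.g318800 of the heat shock list, and both fell between the doses with the block, by log2 values of -1.51 and -1.77. This pair was looked up by name and is 1 of the 88 such pairs counted below. The locus on the other side of Cre07.g318800, Cre07.g318750, had a log2 difference of 0.11 and did not pass. Of the genes tested, 10769 matched that table. Among the 88 matched genes that fell without the block, 1 adjacent pair was found, Cre17.g707100 and Cre17.g707137, with log2 differences of -0.76 and -0.61. With the block, 809 matched genes fell and formed 88 adjacent pairs, and 232 rose and formed 4 pairs, out of 8265 adjacent pairs with both genes tested. At least 1 gene fell in 1171 of the 8265 pairs, and at least 1 rose in 361. Reads of overlapping neighbours may not be separated, since the strand setting of the counting was not stated.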

How the data were processed

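TRI Reagent was used for RNA and a stranded Illumina mRNA kit for the libraries, per the labels. Per the submitters' processing notes, the authors aligned reads with TopHat2 and deposited raw read counts per gene from HTSeq. Versions, build and annotation: not given in the sources used here. A deposited series table holds equal counts in 9 of 9 columns. HTSeq's lines without a gene were left out; reads outside genes or ambiguous came to 1.29% to 1.53% of their sum with the assigned reads.

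The analysis ran edgeR 4.0.16 in R 4.3.3 (filterByExpr, TMM, robust quasi-likelihood fit on all 9 libraries, group as the only term, 6 residual degrees of freedom). Benjamini-Hochberg adjustment covered 14778 of 17737 genes, two-sided, with a threshold of 0.05. Alternatives included DESeq2 1.42.0 and the replicate number as a block (4 residual degrees of freedom). After removing group means from log2 CPM (prior count 2), same-numbered libraries of the doses correlated at 0.147 to 0.57 over the 3 numbers, and differently numbered ones at -0.425 to 0.153. For number 3 the value of 0.147 did not exceed the highest value between different numbers, 0.153. The labels do not say that a number marks a shared batch. Pairing is thus an assumption of the fits with the block, which are given beside the unpaired fit. Standard errors came from the fold change and F statistic. The fits were also run on simulated counts. For the block fit these held a replicate effect shared fully within each number, so that run cannot show whether the numbers are paired here.

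The members, the 9 gene lists and the tests were chosen with earlier results of these data known. Identifiers named beside list members were, without names in the reference table, the 2 higher and 2 lower with the largest difference among called genes of at least 1 CPM without overlap between the doses, and likewise with the block at 5 CPM and the same sign in every replicate number. Genes called lower without the block were also named by the place of their control mean, after the values were seen. These were the 2 with that mean below both doses and the 2 largest falls with it between the doses. Neighbours by locus order were named as well. Lists by protein signature, planned for reference proteins, were not used here.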

Additional observations from a re-analysis of the deposited data

How the results depend on the processing

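Of 1012 values for 46 identifiers under the alternatives, 8 reversed, all in loci that did not pass. The identifiers were list members or genes called in these data. Each alternative refits the same libraries or a part of them. For called genes a kept direction was thus nearly fixed in advance and is no further support. With 1 library left out, the log2 difference ran from -0.21 to 0.067 in Cre11.g468050, from -0.17 to 0.046 in Cre07.g339150, from -0.11 to 0.095 in Cre10.g436550, from -0.13 to 0.70 in Cre04.g222750 and from -0.31 to 0.027 in Cre02.g080650. With the block and without replicate number 2 it was 0.069 in Cre07.g339150 and -0.049 in Cre10.g436550. In all, 123 values lost a call and 116 gained one.

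The 123 called genes became 0 with library totals alone (1530 at an unadjusted p under 0.05), 653 with DESeq2 (47 higher, 606 lower), 74 without robust estimation, 1328 with the replicate block, 55 with the 6 exposed libraries, 1649 with those and the replicate block, and 1 with replicates 2 and 3 only. With 1 library left out they numbered 0 to 383, and with the block and without number 1, 2 or 3 they numbered 538, 533 and 1548. The 13 genes changed by at least 1 became 0, 24, 38, 6, 40 and 1 with totals alone, DESeq2, the block, the 6 libraries, those with the block, and replicates 2 and 3, 0 to 43 with 1 library left out, and 47, 54 and 33 with the block and without number 1, 2 or 3.

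Of the heat shock loci, 2 passed, or 4 with DESeq2's size factors or no filter, 1 with the stricter filter or without robust estimation, 11 with DESeq2, 14 with the block on 9 or 6 libraries, 0 with totals alone or replicates 2 and 3, 0 to 8 with 1 library left out, and 14, 14 and 16 with the block and without number 1, 2 or 3. The glutathione count was 0 with totals alone, the 6 libraries, or replicates 2 and 3, and 0 to 1 with libraries left out. The antioxidant count was 1 with DESeq2 and with the block on 9 or 6 libraries. It was 0 to 1 with 1 library left out, and up to 2 with the block and without a replicate number. The carbon concentrating count was 2 with DESeq2 and with the block, and 8 with the block on 6 libraries, where 1649 genes passed in all. It was 0 with 1 library left out, and up to 4 with the block and without a replicate number. The nitrogen count was 1 with DESeq2. For nitrogen and for tubulin it was 0 with 1 library left out, and up to 1 with the block and without a replicate number. With totals alone the dose difference of the list mean was -0.10 for glutathione and 0.12 for nitrogen. The added fits that combine the block with a left-out number, and the list means with a number left out, were chosen after seeing the data. The causes were not tested. Totals alone moved the median gene's difference from 0.013 to 0.048. In the unpaired test with 3 libraries a group, 13 of the 55 genes that differed by at least 1 on the log2 scale were called. A missing call does not show equal levels.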
